A study of Mus musculus with 5 samples.

Results

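The windows described here were those with intermediate DNA methylation in wild-type (WT) mouse embryonic stem (ES) cells. A window was 1 kb of an autosome in the mm9 build, tested where at least 5 CpGs had 10 or more reads in both the WT and the Fbxl10 T/T library. CpGs inside CCGG, the site of the restriction enzyme MspI, were left out of that count and of the window's level. The level of a window was the mean of its CpGs' methylation fractions, and a window was a member where that level was 30 to 70% in WT. The rule took 573 of 16881 tested windows (3.39%), with 4149 CpGs between them. The WT level chose these windows, so it is given as a description throughout. The Fbxl10 T/T level played no part in the choice, apart from the coverage asked of that library.

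The assay was reduced representation bisulfite sequencing (RRBS). In RRBS, DNA is cut with MspI, treated with bisulfite and sequenced, so that an unmethylated cytosine is read as T. There were 5 libraries, 1 per genotype, all from ES cells grown in serum with leukemia inhibitory factor. The WT and Fbxl10 T/T cells were of strain C57BL/6J, were grown on inactivated feeder cells that were depleted before use, and were taken at passage 17. Fbxl10 T/T cells carry, on both copies of Fbxl10, an allele that the labels write as T. The Ring1B -/-, Eed -/- and Ezh2 -/- cells have no strain, passage or feeder layer in their labels, so genotype cannot be told apart from strain, passage or culture in comparisons of these libraries with WT. With 1 library per genotype no difference had a replicate check. Each test compared the reads of a pair of libraries, not genotypes, and intervals cover counting error only, since reads from PCR are not independent molecules.

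In mammalian cells most CpGs are methylated, while CpG islands, the CpG-dense stretches at many promoters, are mostly free of methylation. An intermediate level can come from 1 methylated and 1 unmethylated allele, as at the control regions of imprinted genes, or from cells or molecules that differ. FBXL10, also called KDM2B, binds unmethylated CpG-rich DNA through its CXXC zinc finger and brings a form of Polycomb repressive complex 1 to CpG islands. RING1B is a catalytic subunit of that complex. EED and EZH2 are subunits of Polycomb repressive complex 2, which methylates histone H3 at lysine 27. Promoters of many germline genes are CpG islands that are kept silent by DNA methylation in somatic cells.

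Sequence from 6 promoters at member windows is shown because results for named genes turn on these windows. Each runs 5′ to 3′ on the gene's strand and stops at the base before the annotated start. The letters are those of RefSeq (GRCm38.p6), and the coordinates are where they were placed on the mm9 tables. The Mael sequence begins beyond its member window, which ends at 168169000. Capitals mark CpGs outside CCGG with 10 or more reads in both WT and Fbxl10 T/T.
Mael (chr1:168168876-168169078, - strand): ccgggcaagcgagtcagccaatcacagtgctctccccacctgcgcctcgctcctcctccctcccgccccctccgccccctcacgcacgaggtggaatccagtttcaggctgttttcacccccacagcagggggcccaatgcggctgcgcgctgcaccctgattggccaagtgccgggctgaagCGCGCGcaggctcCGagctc
Hormad1 (chr3:95363349-95363598, + strand): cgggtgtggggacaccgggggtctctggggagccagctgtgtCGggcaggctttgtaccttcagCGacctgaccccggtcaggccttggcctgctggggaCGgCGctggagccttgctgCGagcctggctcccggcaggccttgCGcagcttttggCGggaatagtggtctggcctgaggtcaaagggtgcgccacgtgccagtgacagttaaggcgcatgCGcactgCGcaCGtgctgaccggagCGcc
Hormad2 (chr11:4341086-4341254, - strand): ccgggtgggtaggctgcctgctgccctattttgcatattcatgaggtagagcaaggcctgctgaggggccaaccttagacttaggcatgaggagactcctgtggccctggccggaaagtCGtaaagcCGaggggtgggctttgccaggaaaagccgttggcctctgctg
Plagl1 (chr10:12810427-12810637, + strand): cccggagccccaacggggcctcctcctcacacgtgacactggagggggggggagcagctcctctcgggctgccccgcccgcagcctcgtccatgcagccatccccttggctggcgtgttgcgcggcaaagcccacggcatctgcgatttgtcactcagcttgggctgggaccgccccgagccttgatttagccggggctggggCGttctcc
Zfp560 (chr9:20189603-20189850, - strand): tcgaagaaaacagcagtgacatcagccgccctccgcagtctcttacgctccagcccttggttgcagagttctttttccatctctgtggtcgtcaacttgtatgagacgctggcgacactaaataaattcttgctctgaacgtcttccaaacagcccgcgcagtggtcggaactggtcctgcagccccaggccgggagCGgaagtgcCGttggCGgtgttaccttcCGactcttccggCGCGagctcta
Adgrl4 (chr3:151100749-151100845, + strand): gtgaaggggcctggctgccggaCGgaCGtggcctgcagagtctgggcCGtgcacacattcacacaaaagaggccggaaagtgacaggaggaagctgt

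The next 4 stretches lie in windows with large rises or falls outside the placed promoters. Their letters were spelled out by the sequence contexts in the deposited mm9 tables, and capitals have the same meaning.
Largest rise (chr17:87524875-87524913, + strand): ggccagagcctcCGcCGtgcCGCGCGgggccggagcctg
Rise near Pheta1 (chr5:122302776-122302879, + strand): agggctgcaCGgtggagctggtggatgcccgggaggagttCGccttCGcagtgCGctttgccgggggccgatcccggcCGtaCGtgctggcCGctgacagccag
Largest fall (chr2:168795651-168795675, + strand): aggtcatgggggtCGggagCGgCGa
Fall near Ihh (chr1:74996412-74996517, + strand): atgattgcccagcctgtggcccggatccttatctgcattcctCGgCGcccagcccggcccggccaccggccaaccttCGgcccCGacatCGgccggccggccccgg

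Most members gained methylation in Fbxl10 T/T. The mean level was 47.7% in WT (SD over windows 12.2) and 64.2% in Fbxl10 T/T (SD 18.5), and the median difference was 20 points (quartiles 4.96 and 30.7). Of the 573 windows, 463 were higher in Fbxl10 T/T and 110 lower, and 55 lay within 5 points of their WT level. A window was called changed where Fisher's exact test (two-sided) on its summed reads gave a Benjamini-Hochberg adjusted p under 0.05 over all tested windows and its level moved by at least 20 points. By that rule 286 members (49.9%) rose, beside 25.3% of all tested windows, and 34 (5.93%) fell, beside 1.68%. Of the 16881 tested windows, 14053 were below 10% in WT and could not fall by 20 points. The shares of members and of all windows are thus not on the same footing. Of windows at 10 to 30% in WT, 73.7% rose and 0.847% fell. Of those at 70% or above, 0.119% rose and 28.4% fell. The members that rose reached a mean of 74.2% from 42.0%, and those that fell went from 50.6% to 20.7%. A further 253 members were not called.

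**Figure D1:**
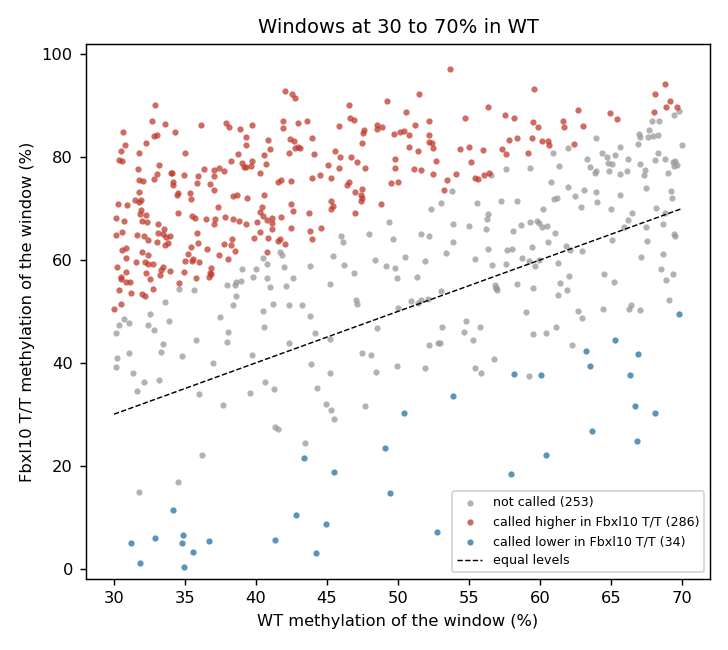
Each point is 1 of the 573 windows, with its methylation in WT on the x axis and in Fbxl10 T/T on the y axis, both in percent, and the dashed line marks equal levels. The 286 windows called higher lie above the line and the 34 called lower lie below it, and Fbxl10 T/T levels span 0.198 to 97.2%.

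In Fbxl10 T/T, 299 of the windows (52.2%) were still at 30 to 70%, 245 (42.8%) were at 70% or above and 29 were below 30%. Of those 29, 12 were below 10%. Within the band, 223 windows were at 50 to 70% and 76 at 30 to 50%. Members thus spread to both sides of the band in the second library, with many more above it than below it.

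Levels in the pair of libraries were weakly related within the band. Across the 573 windows, WT and Fbxl10 T/T levels had Pearson's r of 0.19 and Spearman's rho of 0.21, a description over windows that share both libraries. The band limits the WT range (SD 12.2), and both the limited range and counting error in WT lower such a correlation. The 194 windows at 30 to 40% in WT had a mean of 60.5% in Fbxl10 T/T (SD over windows 18.6), and 144 of them rose while 9 fell. The 144 windows at 40 to 50% averaged 63.3% (SD 20.1), with 84 up and 8 down. The 111 windows at 50 to 60% averaged 66.0% (SD 17.2), with 42 up and 5 down. The 124 windows at 60 to 70% averaged 69.2% (SD 16.2), with 16 up and 12 down. These ranges were cut on the WT level, so the means are a description. A rise of 20 points takes a window at 60 to 70% to at least 80%, so the counts of calls are not comparable between these ranges.

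**Figure D2:**
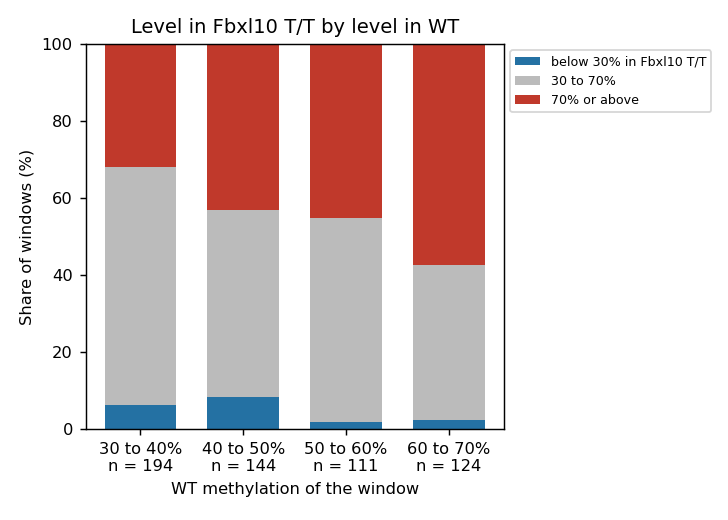
Bars show, for windows grouped by their WT methylation, the share (percent) that was below 30%, at 30 to 70% or at 70% or above in Fbxl10 T/T. The share at 70% or above was 32.0% of windows at 30 to 40% in WT and 57.3% of those at 60 to 70%.

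The share that rose differed with the number of CpGs. Of the 194 windows with exactly 5 CpGs, 38.7% rose and 8.76% fell, at a median of 237.5 WT reads per window. Of the 301 with 6 to 9 CpGs, 51.5% rose. Of the 78 with 10 or more, 71.8% rose and 3.85% fell, at a median of 648.5 reads. The WT mean went down across these groups, 50.8%, 46.9% and 43.1%, and the Fbxl10 T/T mean went up, 62.6%, 64.4% and 67.4%. Read depth and WT level moved with CpG number, and their part in the counts was not tested.

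The members had fewer measured CpGs over a shorter span than the unmethylated windows. Their median was 6 CpGs over 151 bases, against 15 over 323 bases in the 14053 windows below 10% in WT. It was 8 over 225 bases in the 1417 windows at 10 to 30% and 5 over 114 bases in the 838 at 70% or above. On average the windows at 10 to 30% in WT reached 49.97% in Fbxl10 T/T, and those at 70% or above went from 86.7% to 74.6%. These classes were cut on the WT level that the differences also use, so the values are a description.

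An intermediate mean mostly reflected intermediate CpGs. In WT, 440 of the 573 windows (76.8%) had at least 80% of their CpGs at 20 to 80%, and 18 had at least 20% of their CpGs below 20% and at least 20% above 80%. The other 115 fell between. Of single CpGs, 3488 of 4149 (84.1%) were at 20 to 80% in WT, with 422 below and 239 above. In Fbxl10 T/T 2632 (63.4%) were at 20 to 80%, 275 were below and 1242 above. The median SD over the CpGs of a window was 14.8 points in WT, where read counts alone would give 7.06, and 12.4 points in Fbxl10 T/T.

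Most of the 18 windows with both low and high CpGs had a step along the DNA. The median difference between the means of their first and second sets of CpGs by position, taken without sign, was 61.6 points in WT and 29.8 points in Fbxl10 T/T. In the 440 even windows it was 10.1 and 8.28 points. At chr6:135682001-135683000, near the start of Gm14329, 5 CpGs ran from 2.20 to 100.0% in WT and the step was still 75.1 points in Fbxl10 T/T. At chr8:107898001-107899000, near the start of Plekhg4, the step over 15 CpGs was 67.0 points in WT and 10.97 points in Fbxl10 T/T. The step was small in a few of them, at 3.95 points in WT at chr16:15085001-15086000, a window with many unconverted reads outside CpG (values given with the other cytosines).

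Germline genes were among the members. Of the 37 germline genes on the list with a promoter in RefSeq, 12 could be placed, in 9 tested windows. In WT 2 of those windows were below 10%, 1 was at 10 to 30%, 4 were members and 2 were at 70% or above, and all 4 members rose in Fbxl10 T/T, where 49.9% of all members did. The first was Mael, whose product is needed to silence transposons in male germ cells, at chr1:168168001-168169000. Its 9 CpGs averaged 41.9% in WT (SD over CpGs 18.8, 424 reads, Wilson 95% interval of the reads 38.1 to 47.4%) and 87.0% in Fbxl10 T/T (SD 10.2, 185 reads, 80.8 to 90.7%; adjusted p = 9.93e-25, Fisher's exact test). Every one of its CpGs was higher in Fbxl10 T/T, and the 3 within the run of capitals farthest from the start in the Mael sequence went from between 21.1 and 26.3% to 95.2%.

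The other germline members encode proteins of meiotic chromosomes. Hormad1 and Hormad2 encode HORMA-domain proteins of the unsynapsed chromosome axis, and Sycp1 the transverse filament of the synaptonemal complex. Hormad1 (chr3:95363001-95364000, 13 CpGs) went from 53.4% in WT (540 reads) to 75.6% in Fbxl10 T/T (309 reads; adjusted p = 2.61e-08, Fisher's exact test). Within it the CpG at 208 bases before the start did not follow, at 75.8 and 68.8%. Hormad2 (chr11:4341001-4342000, 7 CpGs) went from 49.8% (152 reads) to 79.6% (151 reads; adjusted p = 6.81e-08, Fisher's exact test). Its 2 CpGs upstream of the start, the capitals in its sequence, were lower in both libraries than most of those after the start.

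The Sycp1 member, at chr3:102739001-102740000, lay 239 to 627 bases after the start and went from 37.3% (456 reads) to 70.3% (295 reads; adjusted p = 4.19e-18, Fisher's exact test). The adjoining Sycp1 window, which holds sequence at the start, was no member: it was at 76.4% in WT and 78.8% in Fbxl10 T/T and was not called. The germline helicase gene Ddx4 was below the band in WT, at 17.2%, and reached 70.6%. A germline gene outside the fixed list, chosen after its values were seen, was Btbd18, which encodes a factor of piRNA precursor transcription and shares its window with Ctnnd1. That window went from 58.4% to 83.7% (326 and 240 reads; adjusted p = 3.27e-10, Fisher's exact test).

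The pair of members at placed promoters of listed imprinted genes differed. Maternally methylated control regions had 27 listed genes in RefSeq, of which 11 were placed, in 9 tested windows. Of these windows 7 were below 10% in WT and 2 were members. The windows are at promoters of listed genes and need not hold the control regions. Genes without a placed promoter were not searched, so other members may lie at control regions. Plagl1, an imprinted zinc-finger transcription factor gene, shares its window with the noncoding Hymai at chr10:12810001-12811000. Its 27 CpGs averaged 35.9% in WT (SD over CpGs 9.08 at 1183 reads) and 76.3% in Fbxl10 T/T (SD 11.7 at 759 reads), and the window rose (adjusted p = 1.49e-76, Fisher's exact test). Zrsr1, an imprinted retrogene within an intron of Commd1, was at 36.0% in WT (SD over CpGs 9.34 at 1050 reads) and 33.9% in Fbxl10 T/T (SD 13.7 at 532 reads), at chr11:22872001-22873000. Its reads had overlapping intervals, 32.9 to 38.7% and 32.3 to 40.4%, and it was not called (adjusted p = 0.937, Fisher's exact test).

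**Figure D3:**
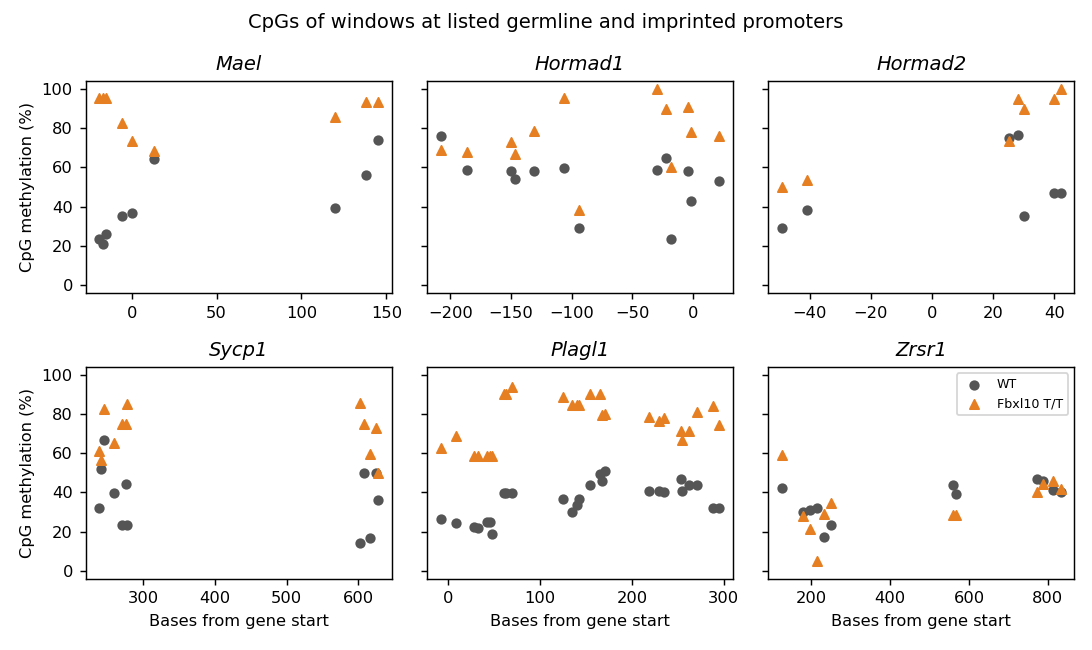
Each panel shows 1 gene, with the distance of each measured CpG from the gene's start (bases) on the x axis and its methylation (percent) on the y axis, in WT (circles) and Fbxl10 T/T (triangles). The triangles lie above the circles over the whole of Mael and of Plagl1, which went from 35.9 to 76.3%, and mix with them in Zrsr1, at 36.0 and 33.9%.

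No member held a placed promoter of a gene on the remaining lists. Members farther from the start of such genes were not counted here. For example, a member 3960 bases after the start of Pax2 went from 30.5% in WT to 56.3% in Fbxl10 T/T and was called higher. Another, 3892 bases after the start of Pax6, was at 49.2 and 58.9% and was not called. The 1 placed window at a gene listed for the paternally methylated regions and the 7 at pluripotency genes were all below 10% in WT. Developmental regulators (Hox, Pax, Gata, Sox, Fox, Wnt and related genes) had 88 placed windows, of which 78 were below 10% and 10 at 10 to 30%. That list was made from the first letters of gene names, so genes with other names, such as Barhl1, were not on it. The member that overlapped the Barhl1 promoter was at 67.9% in WT and 87.1% in Fbxl10 T/T and was not called. The clustered protocadherins had no promoter in the RefSeq table used.

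Placed promoters were in a small share of the members. A placed RefSeq promoter fell in 47 of the 573 windows (8.20%), against 45.98% of windows below 10% in WT, 19.8% of those at 10 to 30% and 2.27% of those at 70% or above. Placing a promoter needs covered letters, and members covered a shorter span than windows below 10% (151 and 323 bases), whose part in these shares was not tested. Of the 47, 23 rose, 5 fell and 19 were not called, and their mean went from 45.4% to 56.4%. Of the other 526 members 263 rose and 29 fell, with means of 47.9% and 64.9%. Promoter members that rose included Tmem59l (34.0 to 76.9%) and Scnn1b, a subunit gene of the epithelial sodium channel (41.8 to 75.5%). Sirt1, the gene of a deacetylase, was at 52.1% in WT (194 reads) and 52.4% in Fbxl10 T/T (83 reads). Its 6 CpGs were uneven, from 3.03 to 93.3% in WT and from 0 to 100% in Fbxl10 T/T.

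All 5 promoter windows that fell can be named. Zfp560, a zinc-finger gene, went from 35.5% in WT (SD over 10 CpGs 7.32 at 481 reads) to 3.23% in Fbxl10 T/T (SD 2.38 at 315 reads; adjusted p = 1.62e-28, Fisher's exact test). Its highest CpG in Fbxl10 T/T was at 6.06%, so the fall covered the whole window, the CpGs capitalised in its sequence included. In Ring1B -/- it was at 9.30% (43 reads) and was also called lower than in WT. Adgrl4, an adhesion receptor gene of endothelium, went from 44.9% (192 reads) to 8.73% (119 reads; adjusted p = 4.63e-11, Fisher's exact test). Lyl1, a basic helix-loop-helix factor gene of blood cells, went from 49.4% (458 reads) to 14.6% (339 reads), with 1 CpG still at 50%. Kdm8, which encodes a Jumonji-domain protein, went from 31.2% (408 reads) to 5.03% (276 reads). The measured CpGs lay 135 to 442 bases after the start in Lyl1 and 485 to 767 bases after it in Kdm8. The values of these windows thus do not cover sequence upstream of the start.

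The fifth was the window shared by Tmem267 and 3110070M22Rik, at chr13:120277001-120278000. It had 41 CpGs and 292 WT reads per CpG, against a median of 45 over the CpGs of members, and went from 49.1% to 23.5%. Among the Polycomb mutants its reads were 14.8% methylated for Ring1B -/-, 2.67% for Eed -/- and 42.9% for Ezh2 -/-. Near a placed start, the window 1769 bases after the start of Ihh, a hedgehog ligand gene, fell from 44.2% (329 reads) to 3.08% (223 reads), and all 5 of its CpGs, capitalised above, were at or below 8.82%. The window around 520 bases after the start of Snai1, a repressor of epithelial genes, fell from 35.0% (441 reads) to 0.198% (274 reads). Its 9 WT CpGs were uneven, with an SD of 26.3 points.

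**Figure D4:**
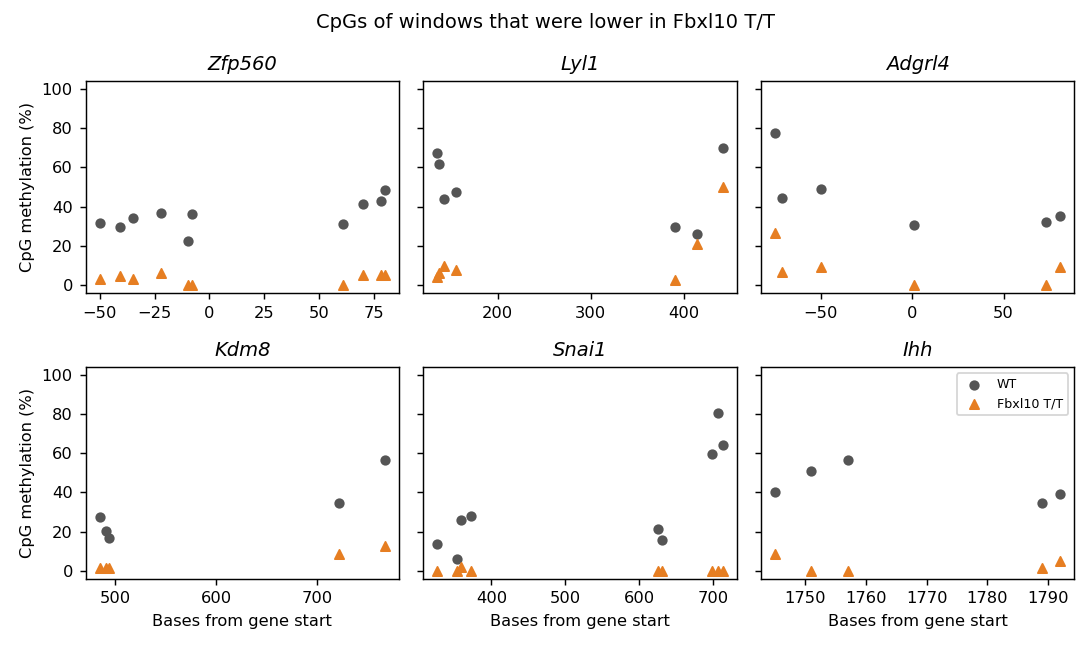
Each panel shows 1 window that was lower in Fbxl10 T/T, with the distance of its CpGs from the gene's start (bases) on the x axis and methylation (percent) on the y axis, in WT (circles) and Fbxl10 T/T (triangles). The triangles lie near 0 in Zfp560, Snai1 and Ihh, where the windows averaged 3.23%, 0.198% and 3.08%, and higher at single CpGs of Lyl1 and Adgrl4.

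Among the 275 members with at least 200 reads in both libraries, the 10 largest rises were of 48.7 to 57.2 points. The largest was at chr17:87524001-87525000, where 15 CpGs went from 32.9% (840 reads, SD over CpGs 6.86) to 90.1% (SD 4.95, 497 reads; adjusted p = 1.38e-92, Fisher's exact test). At 3824 bases after the start of Pheta1, the window chr5:122302001-122303000 went from 34.3% (935 reads) to 84.9% (426 reads). Not all of these windows were even in WT. At chr5:110771001-110772000 the mean over 6 CpGs was 30.3%, while the reads as a whole were 5.17 to 9.67% methylated (Wilson 95%), because the CpGs had unequal depth and an SD of 33.4 points.

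The 8 largest falls in the same set were of 27.0 to 45.6 points, and the largest was at chr2:168795001-168796000. Its 10 CpGs went from 52.7% (661 reads) to 7.14% (477 reads; adjusted p = 1.64e-58, Fisher's exact test), and the highest was at 18.6% in Fbxl10 T/T. The 6 smallest differences were at most 1.20 points. One was at chr17:34816001-34817000, at 53.0% (415 reads) and 54.0% (301 reads), with intervals of the reads of 52.1 to 61.5% and 51.5 to 62.6%. Another, at chr15:101975001-101976000, kept its mean (45.2 and 44.6%). The step between the means of its first and second sets of CpGs went from 52.1 points to -4.31.

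Members were scattered over the genome. Their share of tested windows ran from 1.92% on chromosome 16 to 4.71% on chromosome 10. With gaps of at most 20 kb they formed 540 groups, of which 511 were single windows, and 11 pairs adjoined. The largest groups had 3 windows. At chr10:80607001-80617000 the 3 went from 51.4, 36.1 and 39.7% to 81.2, 86.2 and 86.3%, and all rose. At chr2:174123001-174126000 adjoining windows went from 63.8, 48.5 and 45.9% to 76.9, 86.2 and 79.9%, and the second and the third rose. At chr14:52608001-52627000 all 3 rose, from 33.6, 35.5 and 59.9% to 62.9, 68.5 and 85.9%. At chr8:72990001-73020000 the middle window, at Tmem59l, rose from 34.0 to 76.9%, while those beside it were not called, at 58.7 and 60.4% and at 32.4 and 47.3%.

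The nearest window with at least 3 CpGs within 5 kb on each side gave 315 flanks for 257 members. In WT 136 of these flanks were below 10%, 50 were at 10 to 30%, 74 at 30 to 70% and 55 at 70% or above. Of the 58 members with both flanks measured, 21 lay between flanks that were both below 30%, 9 between a flank below 30% and one at 70% or above, and 3 between flanks both at 70% or above. Of the 113 flanks below 10% in WT that were among the tested windows, 47 (41.6%) were called higher in Fbxl10 T/T, beside 20.9% of all tested windows below 10%.

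Motif letters were counted on both strands of the 300 bases around each RefSeq start. The E-box CACGTG was in 10 of the 54 promoters that overlapped members (18.5%), among them Hormad1, Mael, Plagl1 and Sycp1. Its share was 10.7% of the 7702 promoters in tested windows and 7.09% of all 31597. Promoters were counted whole, so a motif need not lie in the member. The Sycp1 E-box lies in the adjoining window, which was no member, and the Mael sequence shown above holds none. The E2F letters GCGGGAA or TTCCCGC were in 3 of 54 (5.56%), beside 10.3% and 4.59%. TGCCGC or GCGGCA, the hexamer bound by ZFP57 at imprinted regions when methylated, was in 5 of 54 (9.26%), Plagl1 among them, beside 26.05% and 11.5%. Genes that share a window, such as Plagl1 and Hymai, were counted separately.

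In the Polycomb mutants members could be read only in part, at a median of 3 reads per CpG. Levels there are of summed reads, in windows with at least 30. Each of the 3 comparisons uses the same WT library, so they are set side by side. In Ring1B -/- 71 members averaged 41.4% (SD over windows 23.4), where WT was at 42.6% and Fbxl10 T/T at 61.5% on the same CpGs. Of the 69 tested, 11 (15.9%) were higher than in WT, beside 1.31% of all windows, and 16 (23.2%) were lower, beside 0.558%. Both directions were thus seen in this library.

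In Eed -/- 85 members averaged 28.3% (SD 20.1), beside a WT mean of 41.5% and a Fbxl10 T/T mean of 63.9%. Of 80 tested, 28 (35.0%) were lower than in WT, beside 0.665% of all windows, and 3 (3.75%) were higher, beside 0.343%. In Ezh2 -/- 77 members averaged 23.4% (SD 16.5), beside 41.5% and 60.5%. Of 71 tested, 34 (47.9%) were lower, beside 0.795%, and 3 (4.23%) were higher, beside 0.213%. The higher calls of each Polycomb mutant include chr16:15085001-15086000, a window with many unconverted reads outside CpG. Without it, a choice made after seeing the data, 10 members were called higher in Ring1B -/-, 2 in Eed -/- and 2 in Ezh2 -/-. Most windows of all classes were below 10% in WT and could not fall by 20 points, so the background shares of lower calls are not on the same footing. Of the members at 30 or more reads, 51 of 85 were below 30% in Eed -/- and 52 of 77 in Ezh2 -/-. Windows at 70% or above in WT averaged 70.3% in Eed -/- and 61.2% in Ezh2 -/-, where WT was at 85.1% and 83.6%.

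For 34 members all 5 libraries could be set on the same windows. Levels of WT and Fbxl10 T/T here were means over the window's CpGs. Those of the Polycomb mutants were of summed reads over the CpGs read in each. Medians and ranks across the libraries thus set unlike measures side by side and are a description. WT had a median of 43.8% and Fbxl10 T/T of 68.6%. Ring1B -/- had a median of 47.3%, Eed -/- of 21.8% and Ezh2 -/- of 22.05%. Fbxl10 T/T was the highest of the 5 in 23 of the 34, and Ezh2 -/- the lowest in 14. In both Eed -/- and Ezh2 -/- 8 windows were lower than in WT, and 3 of these were higher in Fbxl10 T/T. One was the Scnn1b promoter window, which was at 41.8% in WT and 75.5% in Fbxl10 T/T. It had 47.2% of 36 reads methylated in Ring1B -/-, 8.06% of 62 in Eed -/- and 8.33% of 36 in Ezh2 -/-. Another, chr11:84924001-84925000, went from 46.6% in WT to 90.1% in Fbxl10 T/T and had 58.9% (73 reads), 16.9% (59 reads) and 4.69% (64 reads) in the Polycomb mutants, in the same order. The last, chr4:134696001-134697000, was the only one of the 34 that was lower in all 3 Polycomb mutants, at 3.37%, 7.69% and 8.05%.

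**Figure D5:**
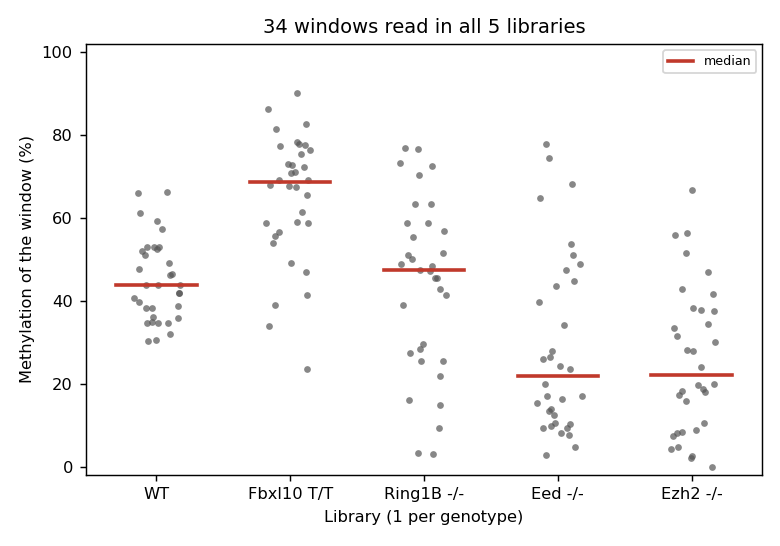
Each point is 1 of the 34 windows with at least 30 reads in each of the Polycomb mutants, with the library on the x axis, its methylation (percent) on the y axis and a line at the median. The medians were 68.6% in Fbxl10 T/T, 43.8% in WT and 47.3% in Ring1B -/-, and 21.8% and 22.05% in Eed -/- and Ezh2 -/-, with wide overlap between libraries. Levels are means over CpGs in WT and Fbxl10 T/T and of summed reads in the Polycomb mutants.

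At the imprinted windows, Zrsr1 had 28.4% of 81 reads methylated in Ring1B -/-, 9.41% of 85 in Eed -/- and 2.04% of 98 in Ezh2 -/-, against 36.0% in WT. It was called lower in Eed -/- and Ezh2 -/-. Plagl1 had 41.5% of 53 reads methylated in Ring1B -/- and 34.2% of 38 in Eed -/-. In Ezh2 -/- it had no methylated read of 43 and was called lower. Germline members had too few reads for a test in most of these libraries: Hormad1 read 51.4% in Eed -/- and Sycp1 31.2%, and neither was called there. The window near Pheta1 differed between mutants, at 66.1% in Ring1B -/- (56 reads), where it was higher than in WT, and 8.51% in Ezh2 -/- (47 reads), where it was lower.

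The CpGs inside CCGG, which the rule did not use, lie on the same fragments. The members held 2339 of these, a median of 4 per window. Their mean over windows was 55.2% in WT and 71.6% in Fbxl10 T/T, and they were higher in Fbxl10 T/T in 491 of the 573 windows. Of the 286 members that rose, 283 were also higher at these CpGs, by a median of 26.4 points. Of the 34 that fell, 31 were also lower there, with a median difference of -15.7 points. The members that were not called also had a median rise there, of 9.53 points. Of their reads 52.4% were methylated in WT and 66.8% in Fbxl10 T/T. The same share was 56.1% for Ring1B -/-, 47.2% for Eed -/- and 47.7% for Ezh2 -/-. These CpGs also read high in windows below 10%, where 22.5% of their reads were methylated in WT, 29.7% in Fbxl10 T/T, and 35.5%, 33.96% and 32.8% in the Polycomb mutants in the same order. CpGs outside CCGG in those windows were at 2.10% in WT, so CCGG values are not on the scale of the window levels.

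Outside CpG, 1.35% of the members' reads at CA cytosines were methylated in WT and 1.91% in Fbxl10 T/T. The Fbxl10 T/T value rests in part on chr10:11211001-11212000, the most deeply read member, with 1087 of 5090 reads (21.4%), and the median over windows was lower in Fbxl10 T/T (0.404%) than in WT (0.737%). At CT and CC cytosines the share of unconverted reads was 0.705% in WT and 0.654% in Fbxl10 T/T. It was 3.06% for Ring1B -/-, 6.34% for Eed -/- and 2.65% for Ezh2 -/-. In Eed -/- 931 of these reads came from chr16:15085001-15086000, where 64.7% of 1438 reads were unconverted, and without it the share was 3.05%. That window, also the only one of the 34 at 30 to 70% in all 5 libraries, had 14.8% of these reads unconverted in WT and 19.8% in Fbxl10 T/T, with 50.3% for Ring1B -/- and 58.2% for Ezh2 -/-. At its CA cytosines 1 of 195 reads was unconverted in WT and 1 of 83 in Fbxl10 T/T. In the Polycomb mutants CA reads were few, with 1 of 11 for Ring1B -/-, 0 of 9 for Eed -/- and 1 of 7 for Ezh2 -/-. This window was among those called higher in all 4 mutants, and its CpG values cannot be told apart from incomplete conversion.

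Windows beside the edges of the band had nearly the same WT levels as their neighbours across it. Just inside the lower edge was chr6:23210001-23211000 at 30.01% in WT, and just outside was chr2:155340001-155341000 at 29.9995%. Just inside the upper edge was chr5:24097001-24098000 at 69.97%, and just outside was chr11:58972001-58973000 at 70.01%. The median width of the 95% Wilson interval of a member's reads was 10.6 points in WT and 11.96 points in Fbxl10 T/T, so windows near an edge could have fallen on either side of it.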

How the data were processed

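The authors' deposited tables hold, for each cytosine, the count of C reads and of C and T reads, with a 5-base context, per the file headers. They also hold an expected count of C and T reads, which the authors scaled by reads of the opposite strand, and a methylation fraction made from it, per the file headers; neither was used here. Alignment to mm9 with BSMAP 2.74 is given in the submitters' processing notes; its settings are not given in the sources used here. Levels and tests here used the deposited counts, at 43079673 (WT), 27338258 (Fbxl10 T/T) and 1766681 to 1942248 (Polycomb mutant) reads at CpGs. Members had medians of 45 and 28 reads per CpG in WT and Fbxl10 T/T. Cytosines on chromosomes X and Y were left out of the main results.

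Fisher's exact tests (scipy 1.17.1) were adjusted by Benjamini-Hochberg over all windows tested. Polycomb mutants were tested where 5 CpGs were read in both libraries, with at least 30 reads in each. RefSeq promoters (GRCm38.p6, 250 bases before to 50 after the start) were placed on mm9 by the letters that the contexts spell: at least 40 letters, 95% or more the same, at a unique place. Of 32619 promoters 9747 were placed; none of chromosome 18 was in the table used. Windows were named by a rule: with at least 200 reads in both libraries, the 10 largest rises, 8 largest falls and 6 smallest differences, and members at genes of fixed lists. The rule's match to gene bodies needed a genome, so the nearest placed start within 5 kb was used instead. The tests were also run on simulated reads, drawn independently at the depths of the data. Such reads hold no PCR duplicates and no variation between libraries, so the effect of these on the tests was not checked. The members and the lists were chosen with earlier results of these data known. The alternatives tried were other minimums of reads and CpGs, CCGG kept, wider windows, summed reads, means over windows, a narrower band, other sizes of difference, chromosome X added, the deepest CpGs left out and the median difference subtracted. One window with unconverted reads was also left out, an alternative chosen after seeing the data. Python 3.11.15, pandas 2.3.3, numpy 2.4.6 and matplotlib 3.10.9 were used.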

Additional observations from a re-analysis of the deposited data

How the results depend on the processing

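More members were called up than down in Fbxl10 T/T under every alternative listed here. Counts moved, and in many alternatives the rule took more or fewer windows, but shares moved too. The share called up was 49.9% in the main results, 38.4% with at least 3 CpGs, 71.8% with at least 10 and 40.2% with CCGG kept. The share called down was 5.93%, 8.78%, 3.85% and 5.49%, in the same order. With at least 3 CpGs 1686 windows were members, 647 up and 148 down, with a mean of 61.7%, 881 still at 30 to 70% and 1232 even in WT. With at least 10 CpGs the 78 members had 56 up, 3 down, a mean of 67.4%, 34 still in the band and 52 even. With CpGs inside CCGG kept there were 2495 members, 1004 up and 137 down, a mean of 62.5%, 1374 in the band and 1808 even. At 40 to 60% in WT there were 255, with 126 up, 13 down, a mean of 64.5%, 129 in the band and 220 even. At least 20 reads per CpG gave a mean of 65.04% and 199 in the band, 2-kb windows a mean of 63.8%, and summed reads a mean of 64.47%. A minimum of 10 points gave 55 down, and one of 30 points 152 up and 16 down.

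In the Polycomb mutants, at least 15 reads per window gave 52 called windows and a mean of 39.7% for Ring1B -/-, 53 called for Eed -/-, and 58 called and a mean of 26.2% for Ezh2 -/-. At least 60 reads gave 5 called and a mean of 39.2%, 8 called, and 10 called and a mean of 20.4%, in that order. With CpGs inside CCGG kept, Ring1B -/- had 64 called and a mean of 46.8%, Eed -/- 51 called and 36.3%, and Ezh2 -/- a mean of 34.9%. At 40 to 60% in WT 12, 16 and 14 windows were called, and the Ezh2 -/- mean was 25.2%.

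CpGs inside CCGG averaged over windows were at 55.2% (WT), 71.6% (Fbxl10 T/T), 49.6% (Eed -/-) and 50.4% (Ezh2 -/-), and at 40 to 60% in WT at 50.6% (WT) and 62.7% (Fbxl10 T/T). CA methylation averaged over windows was 1.13% in WT and 1.06% in Fbxl10 T/T, so the order of these libraries reversed against summed reads; 1 deep window had 1087 of the Fbxl10 T/T reads. At 40 to 60% the unconverted share of summed CA reads was 1.10% (WT), 2.33% (Fbxl10 T/T), 1.42% (Ring1B -/-) and 2.38% (Eed -/-). The Ring1B -/- and Eed -/- values lay below the CT and CC shares at the same setting (2.81% and 3.56%). CA methylation in these libraries thus cannot be told apart from incomplete conversion. CT and CC reads averaged over windows were unconverted at 0.643% (WT), 0.592% (Fbxl10 T/T), 2.98% (Eed -/-) and 2.30% (Ezh2 -/-). At 40 to 60% in WT they were at 0.737%, 0.708%, 2.81% (Ring1B -/-) and 3.56% (Eed -/-). Without the chromosome 16 window, an alternative chosen after seeing the data, they were at 0.683% (WT), 2.76% (Ring1B -/-), 3.05% (Eed -/-) and 2.29% (Ezh2 -/-). Why values moved was not tested.

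No paired analysis was possible because each genotype had 1 library. No replicate was left out for the same reason. At a median of 3 reads per CpG in the Polycomb mutants, most members had fewer than 30 reads in each of these libraries and were not tested there at that minimum.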
